A study of Mus musculus with 3 samples.

Results

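Pou5f1, Nanog, Sox2 and Klf4 are the core pluripotency transcription factor genes, 4 of the 21951 protein-coding genes in GENCODE mouse release M21, and they were chosen by name and followed at fixed intervals of the mouse genome build mm9. RNA from ovulated oocytes was sequenced in 3 libraries, 1 for each of 3 litters, and there was no second group. All the oocytes came from superovulated females of mixed strain and were collected by embryonic day 0.5. The females were LSD1 FL/FL and ZP3::Cre negative, so every library shares the floxed alleles of the histone demethylase gene Kdm1a (LSD1) and none carries the Cre transgene driven by the oocyte promoter of Zp3. The labels give neither the age of the females nor the number of oocytes pooled for a library. Total RNA was copied by single primer isothermal amplification (SPIA), a linear amplification for very small amounts of RNA, before the Illumina libraries were made.

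Pou5f1 encodes OCT4, a POU-domain factor that binds DNA together with SOX2, an HMG-box factor. NANOG is a homeodomain protein that occupies many of the same sites in embryonic stem cells, and KLF4 is a zinc-finger factor used with OCT4 and SOX2 to reprogram somatic cells. A transcript found in the ovulated oocyte is a maternal transcript, which means RNA made by the mother's germ cell and carried into the egg before the embryo's own genome is active.

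The depth behind these values was 35183199, 31787887 and 32028802 alignments of 72 bases in litters 1, 2 and 3. Of these, 85.6%, 85.5% and 85.2% repeated the start position of another alignment in the same library. Levels are given as alignments in the gene's interval, which are the summed depth divided by 72, and as CPM, which are alignments scaled to a library total of 1e6. The detection floor was set at 3 alignments, equal to 0.0853, 0.0944 and 0.0937 CPM in litters 1, 2 and 3. For a count of 0 the 95% interval reaches higher than this floor, to 0.115 CPM in litter 3. Intervals quoted with CPM are exact Poisson intervals at 95% and, like the floor, cover counting error only, since amplified reads are not independent molecules. Oocyte, cumulus cell and blood markers and the wider set of pluripotency genes were not analysed here, so the labelled cell type was not checked against its markers.

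Pou5f1 and Klf4 were detected in all 3 litters, while Sox2 and Nanog lay at or near the detection floor. By the definition above, Pou5f1 and Klf4 are maternal transcripts if their RNA is that of the labelled oocytes, which was not tested. Detection required over 3 alignments and more alignments than in either flank of equal length, in every litter, and 2 of the 4 genes met it. Among windows tiling the genome, the same rule was met by 5.18% of those as long as the Pou5f1 interval, 5.64% at the Klf4 length, 3.20% at the Sox2 length and 6.86% at the Nanog length. The gene content of these windows was not measured, so the shares are not those of other genes. Neither Sox2 nor Nanog was at 3 alignments or fewer in every litter, so neither was at the floor throughout. Sox2 reached the floor in litter 1 and exceeded it in litters 2 and 3, and Nanog exceeded it in litter 1 only. These calls count every alignment in an interval, inside exons or not. By exon lengths, all 9 Nanog alignments of litter 1 fall outside the exons of the principal annotated transcript. Within those exons alone, Nanog would not exceed the floor in any litter.

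Pou5f1 (ENSMUSG00000024406.16, chr17:35642977-35647722, mm9, plus strand) held 3808, 7654 and 3526 alignments in litters 1, 2 and 3. These correspond to 108 CPM (104.8 to 111.7), 241 CPM (235.4 to 246.2) and 110 CPM (106.5 to 113.8). Each library is bulk RNA of a litter's oocytes, so fewer cells with the transcript and less RNA per cell cannot be told apart. Litter 2 was the highest. Its interval, which covers counting error only, did not overlap those of litters 1 and 3, while the intervals of litters 1 and 3 overlap. How often such intervals fail to overlap in other windows was not measured. The mean was 153 ± 76.0 CPM (SD, n = 3). Averaged over all 4746 bases, depth was 1.64, 3.65 and 1.67 per 1e6 alignments in litters 1, 2 and 3. Only 708 of 559387 windows of that length, or 0.127%, had a mean as high. The highest litter was 2.22 times the lowest. Over the 15894 windows of that length with a mean of at least 5 CPM and no litter at 0, the median was 2.09 times. Of these windows, 45.5% varied at least as much as Pou5f1.

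Depth in the Pou5f1 interval fell into blocks separated by bases with no alignment. A total of 5 blocks had alignments in every litter, with lengths of 360, 118, 136, 174 and 485 bases in the 5′ to 3′ direction. The principal annotated transcript has 5 exons of 466, 121, 131, 159 and 485 bases. Gaps between the blocks were 2627, 182, 432 and 136 bases, beside annotated introns of 2619, 184, 442 and 148 bases. The annotation is on the build GRCm38, so blocks and exons were set side by side by order and length only, and exon borders were not placed in mm9. The alignments are gapless, so no read was split across an intron of Pou5f1, Klf4 or Nanog. The Pou5f1 blocks of 136 and 174 bases are longer than the exons of 131 and 159 bases beside them. Whether reads that cross a splice junction add to the depth was not tested.

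The 2 blocks nearest the 3′ end held 98.7%, 98.7% and 99.6% of Pou5f1 alignments in litters 1, 2 and 3. The penultimate block (chr17:35646919-35647092, mm9) had a mean depth of 24.5, 70.8 and 8.85 per 1e6 alignments in litters 1, 2 and 3 (34.7 ± 32.2, SD, n = 3), above the last block in litters 1 and 2 and below its 13.1 in litter 3. The exon at the same place in the order, exon 4 of that transcript, is 159 bases long and wholly coding. Its sequence is shown because the counterpart block holds the most Pou5f1 alignments in litters 1 and 2, though not in litter 3, and it comes from the GENCODE M21 transcript, 5′ to 3′, with no base singled out.
Pou5f1 exon 4: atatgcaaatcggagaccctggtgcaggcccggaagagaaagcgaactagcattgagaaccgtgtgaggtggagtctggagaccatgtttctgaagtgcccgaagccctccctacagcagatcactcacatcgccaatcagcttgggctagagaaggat

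Alignments in the penultimate block numbered 2083, 5441 and 685 in litters 1, 2 and 3, or 59.2, 171 and 21.4 CPM. The last block (chr17:35647229-35647713, mm9) held 1674, 2115 and 2826 alignments, or 47.6, 66.5 and 88.2 CPM. The litters were thus ordered differently in the 2 blocks, with litter 3 lowest in the penultimate and highest in the last. The ratio of the penultimate to the last block was 1.24, 2.57 and 0.242 in litters 1, 2 and 3. The higher Pou5f1 total of litter 2 lay in the penultimate block, and in the last block litter 2 was between the other litters.

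The 3 upstream Pou5f1 blocks were thin. Mean depth per 1e6 alignments was 0.124 ± 0.128 in the block nearest the 5′ end, 0.271 ± 0.224 in the next and 0.163 ± 0.0806 in the one after it (SD, n = 3). Their alignments numbered 17, 42 and 2 in the block nearest the 5′ end, 28, 15 and 2 in the next, and 5, 14 and 11 in the one after it, for litters 1, 2 and 3. In the first 2 of these, litter 3 did not pass the floor. A further block of 185 bases (chr17:35644438-35644622, mm9) held 26 alignments in litter 2 and 0 in litters 1 and 3. It has no counterpart by order among the exons of the principal transcript. Other annotated Pou5f1 transcripts have different first exons, which were not compared with it.

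**Figure D1:**
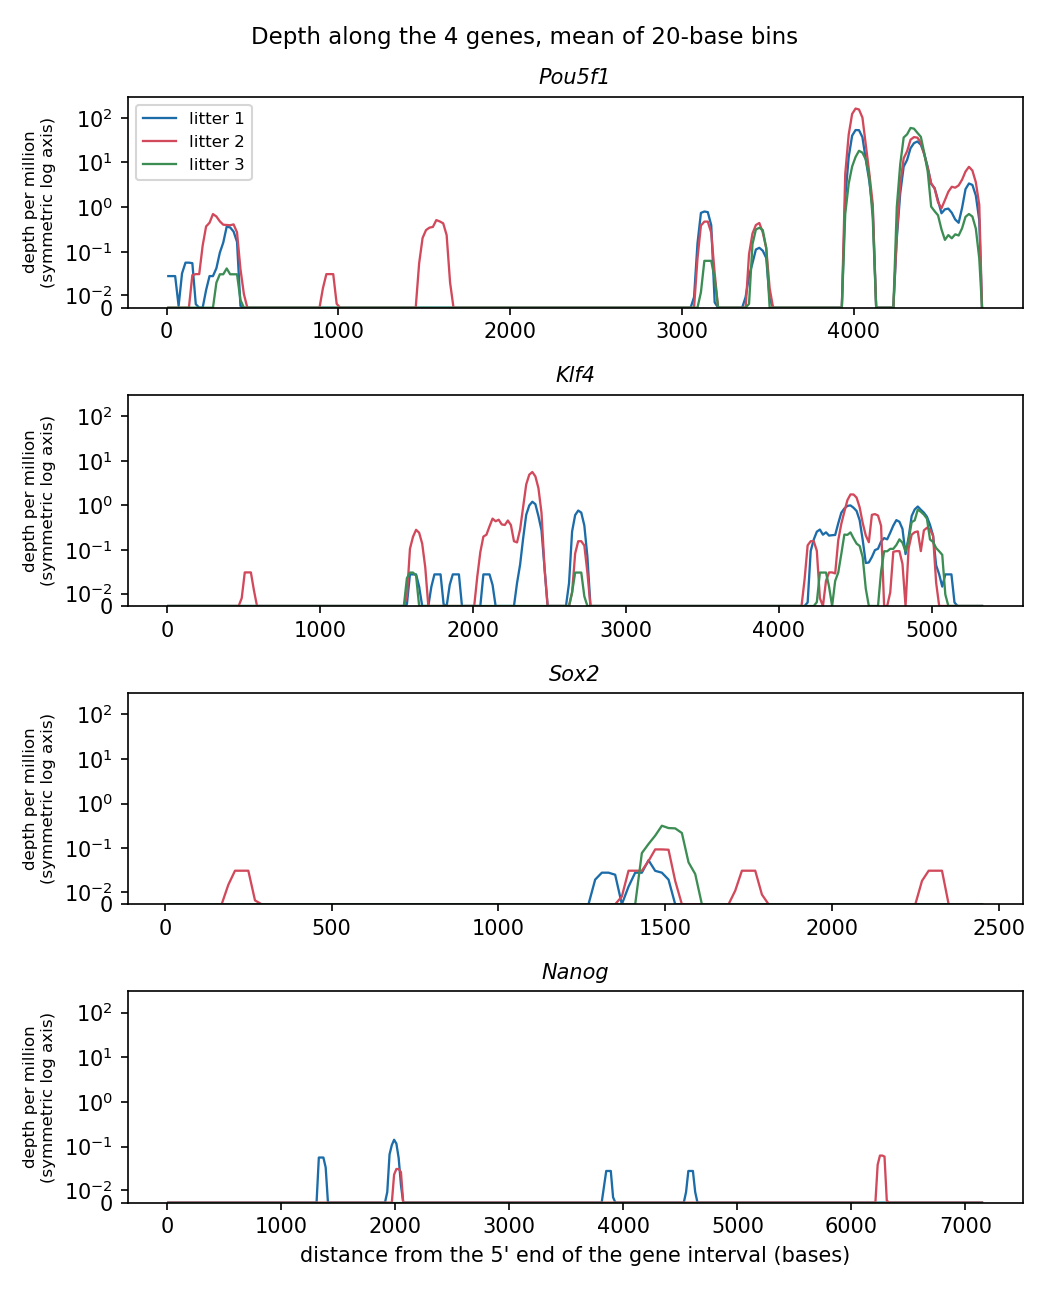
Depth per 1e6 alignments (symmetric log axis) against the distance from the 5′ end of each gene interval in bases, in bins of 20 bases, with 1 line for each litter. Pou5f1 depth is concentrated in the 2 blocks nearest the 3′ end in all 3 litters. Klf4 depth covers several blocks in litters 1 and 2 and mostly the block nearest the 3′ end in litter 3, while Sox2 and Nanog have few alignments, those of Sox2 in litter 3 stacked in 1 stretch.

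The Pou5f1 alignments started at many positions. There were 373, 467 and 274 start positions in litters 1, 2 and 3, and the most used one held 4.54%, 5.70% and 5.16% of the alignments. A total of 231 of the 548 start positions were used in all 3 litters. Repeats of a start position made up 90.2%, 93.9% and 92.2% of Pou5f1 alignments, above the share in each whole library, which was not matched to the depth of Pou5f1.

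Pou5f1 has related copies in the mouse genome, and a read reported at more than 1 site would add to the depth of each. The placements allowed per read are not stated. Start positions were taken 3 in a row, and 10 of the 171 such runs holding 50 or more alignments (5.85%) recurred elsewhere with identical counts in all litters, against 21.2% of such runs genome-wide. They covered starts 35647333 to 35647347 on chromosome 17 (mm9), and their counts were found again at starts 161223936 to 161223950 on chromosome 1. These positions held 5.57%, 2.03% and 5.64% of Pou5f1 alignments in litters 1, 2 and 3. The 5 most used start positions had counts found at 1 place only, their own. If only 1 placement was reported per read, copies would not share counts, so this does not show where those reads arose. Copies that differ in sequence were not tested. GENCODE M21 also lists Gm19553 on the opposite strand across part of Pou5f1, and the tracks carry no strand.

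Around Pou5f1 the flanks of equal length held 5.15 alignments over all litters, against 14988 in the gene. The density ratio was 5817 (95% exact interval 2568 to 18467, counting error only), and it ran from 2847 without litter 2 to 22360 without litter 1.

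Klf4 (ENSMUSG00000003032.8, chr4:55540012-55545347, mm9, minus strand) was lower but detected in every litter. Its alignments numbered 238, 376 and 62 in litters 1, 2 and 3. In CPM these are 6.76 (5.93 to 7.68), 11.8 (10.7 to 13.1) and 1.94 (1.48 to 2.48), with a mean of 6.84 ± 4.95 CPM (SD, n = 3). The 3 intervals do not overlap, with litter 2 highest and litter 3 lowest. How often such intervals fail to overlap in other windows was not measured. The Klf4 intervals cover counting error only, and litters 1 and 2 had 181 and 186 start positions. Litter 2 exceeded litter 3 by 6.11 times, and 8.08% of the 15764 windows of that length with a mean of at least 5 CPM and no litter at 0 varied as much. No alignment fell in either flank in any litter, so density in the gene was at least 451-fold higher, computed against 3 flank alignments over all litters, or at least 200-fold without litter 2. A mean as high was found in 2.60% of windows of that length.

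The Klf4 blocks differed between litters. The block nearest the 3′ end (chr4:55540206-55541176, mm9, 971 bases) held 158, 128 and 60 alignments in litters 1, 2 and 3. That is 66.4%, 34.0% and 96.8% of the gene's alignments. A block of 435 bases farther upstream (chr4:55542881-55543315, mm9) held 50, 233 and 0, where the floor in litter 3 is 0.0937 CPM. The highest Klf4 level, that of litter 2, thus lay mostly in the upstream block, with 62.0% of its alignments. Between these blocks lay one of 116 bases with 27, 5 and 1 alignments, and the gap from it to the 3′ block was 1418 bases, beside 1417 bases for the last intron of the principal Klf4 transcript. That transcript has 5 exons, and 3 blocks had alignments in every litter, so those 3 blocks were not paired in order with exons. By exon and intron lengths, the blocks of 435, 116 and 971 bases fall at exons 3, 4 and 5. These exons are 985, 165 and 1158 bases long, and their borders were not placed in mm9.

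Start positions in Klf4 numbered 181, 186 and 48 in litters 1, 2 and 3, and 6 of 333 were used in all litters. Repeats of a start made up 23.9%, 50.5% and 22.6% of its alignments, below the share in each whole library, which was not matched to the depth of Klf4. No run of 3 start positions reached 50 alignments, so recurrence elsewhere could not be tested for Klf4, and the same holds for Sox2 and Nanog.

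**Figure D2:**
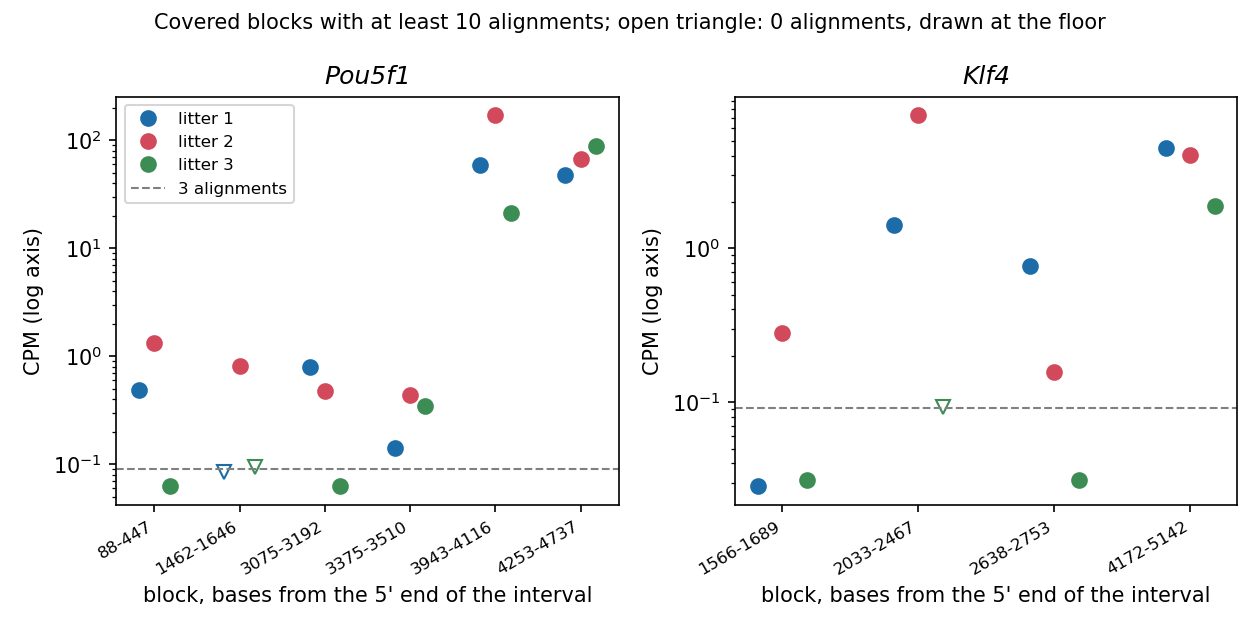
CPM (log axis) of each covered block with at least 10 alignments in Pou5f1 and Klf4, by litter, with blocks named by their distance in bases from the 5′ end of the interval; open triangles mark 0 alignments and are drawn at the floor of 3 alignments. Litter 3 is lowest in the penultimate Pou5f1 block (21.4 CPM) and highest in the last (88.2 CPM), and it has no alignment in the Klf4 block at 2033 to 2467 bases.

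Sox2 (ENSMUSG00000074637.7, chr3:34548927-34551382, mm9, plus strand) is annotated as a gene of 1 exon. It held 3, 7 and 14 alignments in litters 1, 2 and 3. These are 0.0853 CPM (0.0176 to 0.249), 0.220 CPM (0.0885 to 0.454) and 0.437 CPM (0.239 to 0.733), and neighbouring intervals in this order overlap. The mean was 0.248 ± 0.178 CPM (SD, n = 3). All 14 alignments of litter 3 lay in 1 covered stretch of 173 bases, from 9 start positions. The 7 of litter 2 lay in 4 stretches and the 3 of litter 1 in 2. A block of 221 bases (chr3:34550303-34550523, mm9) was the only one with alignments in every litter, holding 2, 4 and 14 in litters 1, 2 and 3. Both flanks held 0 alignments in all litters, so the density in the interval was at least 16.0-fold higher, against 3 flank alignments over all litters, or at least 6.67-fold without litter 3. Sox2 lies inside the annotated long noncoding RNA gene Sox2ot on the same strand, so these few alignments cannot be assigned to Sox2 over Sox2ot. Without litter 1, Sox2 would have passed the detection rule, making 3 of the 4 genes detected.

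Nanog (ENSMUSG00000012396.12, chr6:122657507-122664651, mm9, plus strand) had the fewest alignments. It held 9 in litter 1, 3 in litter 2 and 0 in litter 3. In CPM these are 0.256 (0.117 to 0.486), 0.0944 (0.0195 to 0.276) and 0 (0 to 0.115), where the floor in litter 3 is 0.0937. The mean was 0.117 ± 0.129 CPM (SD, n = 3), a spread as large as the level. Alignments lay in 5 separate blocks over the interval, none with alignments in all 3 litters. The block with the most (chr6:122659441-122659563, mm9) held 5 in litter 1 and 1 in litter 2. The principal transcript has a first exon of 366 bases, then an intron of 3604, an exon of 266 and an intron of 825. By these lengths, the blocks starting 1321, 1935, 3832 and 4555 bases from the 5′ end fall outside its exons. Those blocks held all 9 alignments of litter 1. The block with the most is 123 bases long, beside a second exon of 122 bases in the annotated transcripts Nanog-202 and Nanog-203. Exon borders were not placed in mm9. The 1 kb nearest the 3′ end held 0% of the Nanog alignments of litter 1 and 66.7% of the 3 alignments of litter 2. In Pou5f1 that stretch held 98.7% to 99.6%. Its share in litters 1, 2 and 3 was 60.4%, 32.6% and 95.2% for Klf4. For Sox2 it was 29.6%, 68.8% and 88.7%. The flanks held 2 alignments in all, against 12 in the interval, a density ratio of 12.0 (95% exact interval 2.67 to 110.4, counting error only) that was 24.0 without litter 3. A mean as high as that of Nanog occurred in 20.3% of windows of the same length, and 59.0% of them had no alignment at all.

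Levels were compared between genes per kilobase of the annotated mRNA, which is 1362 bases for Pou5f1, 3029 for Klf4, 2057 for Sox2 and 2211 for Nanog. All alignments in an interval were counted, so the Nanog value includes blocks that fall outside the exons of its principal transcript. On this scale Pou5f1 stood at 79.5, 177 and 80.8 CPM per kb in litters 1, 2 and 3 (112 ± 55.8, SD, n = 3). Klf4 stood at 2.23, 3.91 and 0.639 CPM per kb (2.26 ± 1.63). Sox2 followed at 0.0415, 0.107 and 0.212 CPM per kb (0.120 ± 0.0863), and Nanog at 0.116, 0.0427 and 0 CPM per kb (0.0528 ± 0.0585). The lowest Pou5f1 litter was above the highest Klf4 litter, and the lowest Klf4 litter was above the highest litter of Sox2 and of Nanog. Sox2 and Nanog overlapped across litters and did not differ beyond their spread. No test of this order was run, since an exact two-sided test over the signs of 3 litters cannot go below p = 0.25.

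The distance between the detected genes varied by litter. Pou5f1 per kb of mRNA was 35.6 times Klf4 in litter 1, 45.3 times in litter 2 and 126 times in litter 3 (69.1 ± 49.9, SD, n = 3). With each start position counted once, the ratio was 4.58, 5.58 and 12.7 (7.62 ± 4.42, SD, n = 3), so its size depends on how repeated starts are counted. Both genes were highest in litter 2. Klf4 was lowest in litter 3, where Pou5f1 was close to litter 1, and Sox2 was highest in litter 3 and Nanog in litter 1, within counts too low to rank litters.

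**Figure D3:**
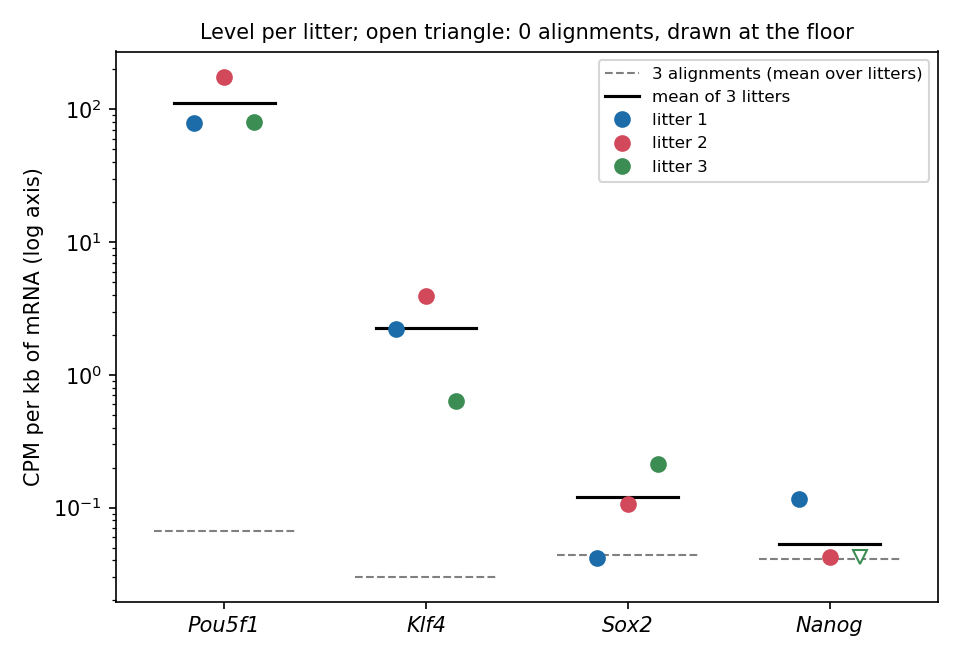
CPM per kb of annotated mRNA (log axis) for each gene, with 1 point for each litter, a black bar at the mean of 3 litters and a dashed line at 3 alignments; the open triangle is Nanog in litter 3, at 0 alignments. Pou5f1 lies between 79.5 and 177 CPM per kb and Klf4 between 0.639 and 3.91, while Sox2 and Nanog reach the floor in at least 1 litter.

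Promoter sequence is shown for the genes with the most and the fewest alignments, Pou5f1 and Nanog, to print the regulatory sequence of both. The 250 bases before the annotated start are from RefSeq on GRCm38.p6, 5′ to 3′ on the plus strand, chr17:35505782-35506031 for Pou5f1 and chr6:122707315-122707564 for Nanog. Capitals mark matches on either strand to TTTGCAT (part of the octamer bound by OCT4), ACAATG (a SOX-type core), GGGCGG (the GC box) and AGGTCA (a nuclear receptor site), motifs chosen after the sequences were seen.
Pou5f1 promoter: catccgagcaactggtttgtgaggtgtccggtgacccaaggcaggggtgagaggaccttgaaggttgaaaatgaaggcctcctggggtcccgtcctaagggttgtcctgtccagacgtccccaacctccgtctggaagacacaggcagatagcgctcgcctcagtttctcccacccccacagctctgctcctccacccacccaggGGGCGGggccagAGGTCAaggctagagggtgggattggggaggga
Nanog promoter: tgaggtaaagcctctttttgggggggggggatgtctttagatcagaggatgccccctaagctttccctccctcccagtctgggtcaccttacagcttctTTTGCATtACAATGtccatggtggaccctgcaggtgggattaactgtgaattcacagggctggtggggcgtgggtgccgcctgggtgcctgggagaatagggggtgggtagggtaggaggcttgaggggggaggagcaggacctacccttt

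The Pou5f1 window held 1 GGGCGG and 1 AGGTCA, and the Nanog window 1 TTTGCAT followed after 1 base by 1 ACAATG. In the Sox2 window there were 2 GGGCGG, 1 TTTGCAT and 1 AGGTCA, and in the Klf4 window 4 GGGCGG. Of 32851 RefSeq promoter windows of that length, 4.12% held TTTGCAT, 10.7% ACAATG, 32.7% GGGCGG and 14.0% AGGTCA. A match is a description of the letters, and the libraries hold no measurement of binding.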

How the data were processed

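The authors deposited a coverage signal track for each library, giving at each base how many alignments cover it, not scaled to depth. Reads were aligned with Bowtie to mm9, per the submitters' processing notes; the aligner's version, the placements allowed per read and any filters are not stated in them. Isolated blocks of depth 1 were multiples of 72 bases in 100% of cases, so alignments were taken as 72 gapless bases and start positions recovered from steps in depth (0 negative values, tested on simulated data). Strand and mapping quality are not part of the tracks.

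Gene intervals in mm9 were supplied for this work; the Pou5f1 and Nanog intervals are as long as the RefSeq genes on GRCm38.p6, those of Sox2 and Klf4 11 and 3 bases shorter. GENCODE M21 (GRCm38) gave identifiers, strand, exon order and lengths, and no coordinate was carried between builds. The mRNA length is that of the principal transcript. Analyses used Python 3.11.15, numpy 2.4.6, pandas 2.3.3 and scipy 1.17.1. The named genes are the 4 supplied. Members, lists and rules were chosen with earlier results of these data known. With 1 group there was no contrast to test; the litters are separate per the labels, and spread is the SD over 3 litters. Alternatives covered scaling, repeated starts, the interval, recurring runs, the length used, flanks, the count minimum and each litter left out.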

Additional observations from a re-analysis of the deposited data

How the results depend on the processing

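Mean levels without 1 of 3 litters cannot leave the spread between litters and were no check. Of the 52 other alternative values, 45 stayed within their limit. The limit was the spread between litters, the counting interval for flank ratios, or 1.5 times for the count of detected genes. Part of that count was fixed in advance. Leaving out recurring runs could not change Klf4, Sox2 or Nanog, which had no testable run. The Nanog SD of 0.129 CPM exceeds its mean of 0.117, so no lower value could leave the spread. Pou5f1 with each start position counted once stayed only just within its SD of 76.0 CPM, and 3 detected genes lay at the limit. Counting each start position once shrinks the library totals as well, and gave 77.6 CPM for Pou5f1, lower than the 153 reported, and higher values for the others, 0.744 for Nanog, 1.34 for Sox2 and 28.7 for Klf4. Mean Pou5f1 CPM was then 2.70 times that of Klf4, against 22.4 times. Per kb of the whole interval Pou5f1 stood at 32.2, and per kb of covered bases Nanog stood at 0.282 and Sox2 at 0.486 CPM, by the lengths used. Leaving out each litter moved the flank ratio of Pou5f1 between 2847 and 22360, the highest without litter 1, where 1 flank alignment remained (95% exact interval 4012 to 883251). The flank bound of Klf4, at least 451-fold, ran from at least 200 (without litter 2) to at least 409, and that of Sox2, at least 16.0-fold, from at least 6.67 (without litter 3) to at least 14.0. The Nanog ratio of 12.0 was 9.00 without litter 2 and 24.0 without litter 3. Leaving out each litter gave 2 to 3 detected genes, 3 without litter 1. Mean CPM without each litter ran from 109 to 175 for Pou5f1, the lowest without litter 2, 4.35 to 9.30 for Klf4, likewise lowest without litter 2, 0.153 to 0.329 for Sox2, lowest without litter 3, and 0.0472 to 0.175 for Nanog, lowest without litter 1. A Nanog flank ratio without litter 1 was not given, as both counts were at or under the floor. No paired analysis was possible because all libraries belong to 1 group. Depth limits Sox2 and Nanog, with 0 to 14 alignments per litter.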
